A study of Homo sapiens with 6 samples.

Results

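The messenger RNAs of 6 receptor tyrosine kinases (EGFR, ERBB2, ERBB3, MET, FGFR1 and FGFR2) and of 4 ligands of the epidermal growth factor (EGF) family (AREG, EREG, HBEGF and TGFA) were followed in 2 human gastric cancer cell lines. These 10 genes were taken by gene name from the 51103 genes in each table, and each name matched 1 row. AGS comes from a gastric adenocarcinoma and HGC-27 from an undifferentiated gastric carcinoma. In AGS there were 2 libraries from cells given a lentivirus for NINJ1-overexpression and 1 negative control library, and in HGC-27 the same numbers, 6 libraries in all. RNA was harvested after 48 hours. The labels do not say whether the lines were clones or mixed populations, whether replicates came from separate cultures, or what the control virus carried. The p-values speak only of spread among these libraries, which may be technical.

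Receptor tyrosine kinases sit in the plasma membrane, pair up when a ligand binds outside, and pass the signal to the RAS-MAPK and PI3K chains inside. EGFR binds AREG, EREG, HBEGF and TGFA, which cells make as membrane-anchored precursors that proteases such as ADAM17 cut loose, often to act on the same cell. ERBB2 has no known ligand and ERBB3 has little kinase activity of its own, so both act mainly as partners of other ERBB receptors. In gastric cancer ERBB2, FGFR2, MET and EGFR can be amplified, and ERBB2 and FGFR2 are drug targets.

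For the NINJ1 replicate 2 libraries, the line in the title is not the line in the file name. Libraries are named here by the line in their file name: AGS NINJ1 replicate 2 is titled HGC-27, and HGC-27 NINJ1 replicate 2 is titled AGS. Genes that only the undisputed libraries of 1 line held (at least 100 counts in both, 0 in both of the other line) gave 15 for HGC-27 and 13 for AGS. At 10 counts or more, AGS NINJ1 replicate 2 held 0 of the 15 and 13 of the 13, and HGC-27 NINJ1 replicate 2 held 15 and 0. The library labelled HGC-27 control also stood apart: genes with a GC content above 60% gave 2.31% of its counts, against 9.25% to 11.3% in the other 5 libraries. For the main log2 differences of named genes that rest on that library, a value after a correction for GC content is therefore given as well. Total counts ran from 12619684 to 18175697. The NINJ1 gene itself had a scaled CPM (read counts relative to library size, after TMM scaling) of 19.5 and 15.9 in the AGS NINJ1 libraries, against 28.4 in the AGS control. In HGC-27 it had 17.3 and 19.1 in the NINJ1 libraries, against 4.89 in the control. In AGS, then, NINJ1 mRNA went against the labels and was lower in the libraries labelled NINJ1 (log2 -0.68, edgeR adjusted p = 0.0148, and 0.260 without AGS NINJ1 replicate 2), while in HGC-27 it was higher (log2 1.89, edgeR adjusted p = 3.22e-08; 0.61 after GC correction). Epithelial markers had 4 of 6 genes at an FPKM of at least 1 in every library. KRT8 was at 48.6 to 82.8 FPKM, while KRT19 had 0 or 1 counts and CDH1, the cell adhesion protein E-cadherin, 0 to 51 counts per library. Leukocyte and endothelial markers summed to at most 1.52 and 0.506 FPKM in any library.

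EGFR and MET were the most abundant of the 10 mRNAs in both lines, and FGFR2 was at or near 0. Levels between genes are compared in FPKM, the authors' counts scaled for gene length and library total, over the 3 libraries of each line. In AGS the order ran from EGFR (67.2 ± 6.67 FPKM, SD, n = 3) through MET (50.5 ± 2.62), FGFR1 (9.30 ± 1.39), ERBB2 (5.02 ± 0.345) and HBEGF (2.85 ± 0.599). TGFA (1.77 ± 0.372), ERBB3 (1.66 ± 0.824) and AREG (1.52 ± 0.400) followed with overlapping ranges, then EREG (0.125 ± 0.0618) and FGFR2. In HGC-27 MET (45.3 ± 27.4) and EGFR (34.8 ± 1.63) led with overlapping ranges, followed by TGFA (7.37 ± 1.10). ERBB3 (3.71 ± 1.05), ERBB2 (3.55 ± 1.88), FGFR1 (3.05 ± 1.86), AREG (2.92 ± 1.14) and EREG (2.36 ± 0.478) came next, each overlapping its neighbour in range, and HBEGF (0.791 ± 0.518) lay below them.

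**Figure D1:**
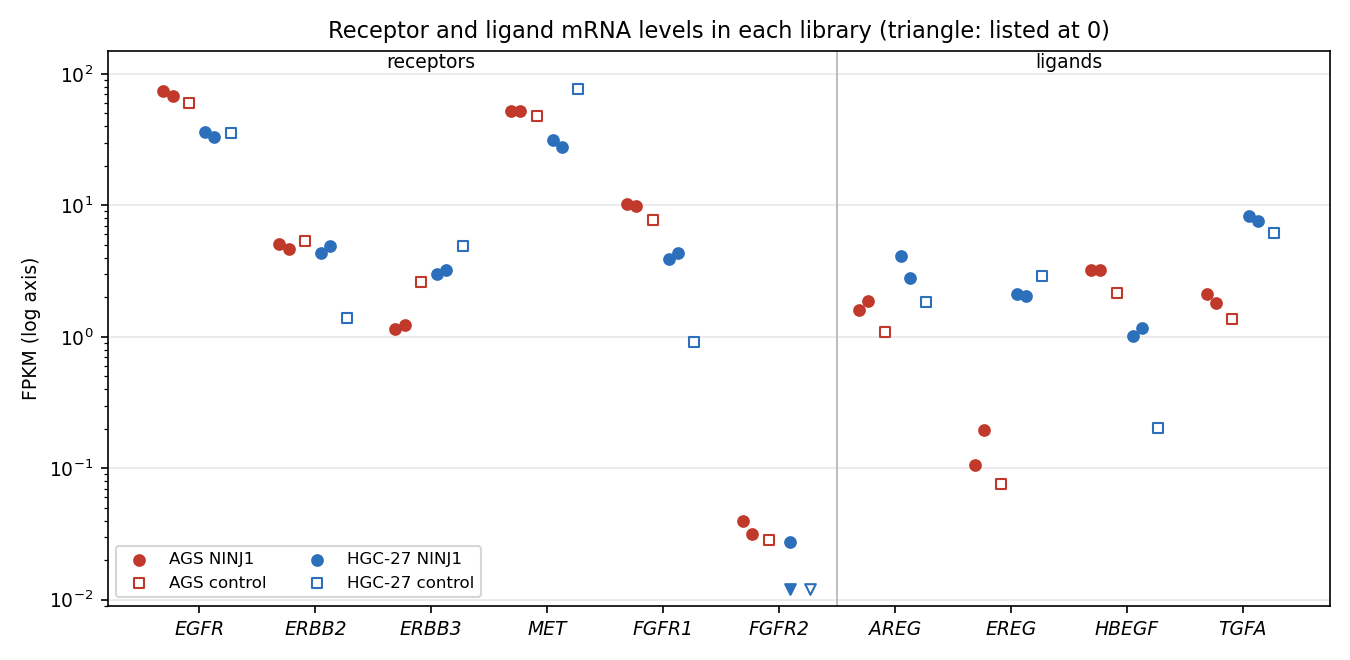
FPKM of each of the 10 genes on a log axis, with 1 point per library, AGS in red, HGC-27 in blue, NINJ1 libraries filled and controls open; triangles mark FGFR2 listed at 0. EGFR and MET lie between 27.8 and 76.9 FPKM in all 6 libraries. The HGC-27 control lies above or below both HGC-27 NINJ1 libraries for every gene but EGFR and FGFR2.

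Between the lines, the 10 genes split in both directions: FGFR1 and HBEGF were higher in AGS, while ERBB3, EREG and TGFA were lower. These 5 of the 9 tested genes had an adjusted p under 0.05 (edgeR, quasi-likelihood, Benjamini-Hochberg over 17617 genes), against 6.14% of all genes tested, 3.27% higher and 2.87% lower. In such bulk samples fewer cells with an mRNA and less of it per cell cannot be told apart. The test set 3 AGS libraries against 3 HGC-27 libraries with treatment as a term. FGFR2 was not tested because its counts were too low.

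Among the receptors, EGFR (ENSG00000146648, GRCh38 chromosome 7, 55019021 to 55211628, plus strand) had 67.9 and 73.5 FPKM in the AGS NINJ1 libraries and 60.2 in the AGS control. In HGC-27 it had 35.9 and 32.9 FPKM in the NINJ1 libraries and 35.6 in the control. All AGS libraries lay above all HGC-27 libraries, at a log2 difference of 0.83 (SE 0.21, edgeR adjusted p = 0.0813), which did not pass without the GC correction and passed with it (0.86, SE 0.15, edgeR adjusted p = 0.00918). FGFR1 (ENSG00000077782, chromosome 8, 38400215 to 38468834, minus strand), a receptor for fibroblast growth factors, had 9.88 and 10.3 FPKM in the AGS NINJ1 libraries and 7.72 in the AGS control. HGC-27 held 3.90 and 4.33 FPKM in the NINJ1 libraries and 0.914 in the control, so every AGS library was higher. FGFR1 was 3.38-fold higher in AGS (log2 1.76, SE 0.34, edgeR adjusted p = 0.0405; 1.65 after GC correction).

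ERBB3 (ENSG00000065361, chromosome 12, 56076799 to 56103505, plus strand), which binds neuregulins, had 1.22 and 1.15 FPKM in the AGS NINJ1 libraries and 2.61 in the AGS control. HGC-27 held 2.99 and 3.22 FPKM in the NINJ1 libraries and 4.92 in the control. The lines did not overlap, and ERBB3 was 2.55-fold lower in AGS (log2 -1.35, SE 0.20, edgeR adjusted p = 0.0200; -1.50 after GC correction). ERBB2 (ENSG00000141736, chromosome 17, 39687914 to 39730426, plus strand), the receptor that trastuzumab binds, had 4.66 and 5.04 FPKM in the AGS NINJ1 libraries and 5.35 in the AGS control. HGC-27 held 4.38 and 4.87 FPKM in the NINJ1 libraries and 1.40 in the control. The lines overlapped, with a log2 difference of 0.56 (SE 0.36, edgeR adjusted p = 0.388) that was 0.16 (SE 0.12) with the GC correction. At 57.5%, ERBB2 had the highest GC content of the 10 genes.

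MET (ENSG00000105976, chromosome 7, 116672390 to 116798386, plus strand), the receptor for hepatocyte growth factor, had 52.2 and 51.8 FPKM in the AGS NINJ1 libraries and 47.5 in the AGS control. HGC-27 held 31.2 and 27.8 FPKM in the NINJ1 libraries and 76.9 in the control. The HGC-27 control was thus above every AGS library and the other HGC-27 libraries below every AGS library, and the line difference was log2 0.21 (SE 0.41, edgeR adjusted p = 0.776; 0.34 after GC correction). It turned negative with the lines as titled (-0.39), on the 4 undisputed libraries (-0.16) and without HGC-27 NINJ1 replicate 2 (-0.061). The mRNA of its ligand HGF had 0 counts in all 6 libraries. FGFR2 (ENSG00000066468, chromosome 10, 121478334 to 121598458, minus strand), amplified in some diffuse gastric cancers, had 3 and 4 counts in the AGS NINJ1 libraries and 3 in the AGS control. In HGC-27 it had 3 and 0 counts in the NINJ1 libraries and 0 in the control. A count of 0 allows up to 3 counts, or 0.0218 FPKM in the HGC-27 control (counting error only), so no fold is given.

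The largest fold between the lines among the 9 tested genes was that of a ligand, EREG. AREG, EREG and HBEGF are shown by the 250 bases before their RefSeq start (GRCh38.p14), because AREG and EREG are neighbours on chromosome 4, separated by 56.4 kb with 0 coding genes between them, and both were at higher FPKM in HGC-27 NINJ1 libraries than in any AGS library. HBEGF, which went the other way, stands beside them. Capitals mark the letters TATAAA or TGACGTCA (the cyclic AMP response element), searched on both strands without overlap between them. AREG is chr4:74444886-74445135, plus strand; EREG is chr4:74364895-74365144, plus strand; HBEGF is chr5:140346604-140346853, minus strand.
AREG: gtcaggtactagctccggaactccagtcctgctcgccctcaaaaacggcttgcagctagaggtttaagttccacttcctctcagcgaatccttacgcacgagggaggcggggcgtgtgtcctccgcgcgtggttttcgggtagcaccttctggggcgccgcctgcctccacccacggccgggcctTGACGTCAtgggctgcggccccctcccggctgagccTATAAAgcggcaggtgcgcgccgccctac
EREG: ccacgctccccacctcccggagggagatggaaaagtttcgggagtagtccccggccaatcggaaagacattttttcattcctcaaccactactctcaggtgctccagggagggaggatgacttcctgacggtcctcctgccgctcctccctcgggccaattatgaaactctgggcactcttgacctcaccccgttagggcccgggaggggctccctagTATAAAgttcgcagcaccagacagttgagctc
HBEGF: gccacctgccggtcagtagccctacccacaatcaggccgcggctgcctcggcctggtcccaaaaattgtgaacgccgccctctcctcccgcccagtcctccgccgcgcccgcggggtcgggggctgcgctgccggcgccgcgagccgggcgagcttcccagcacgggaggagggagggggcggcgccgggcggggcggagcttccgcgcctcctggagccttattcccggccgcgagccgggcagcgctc
TATAAA starts at position -29 in AREG and -32 in EREG, counted from the RefSeq start, and occurs in 10.7% of 35116 RefSeq promoter windows of this length. TGACGTCA starts at -65 in AREG and occurs in 1.65% of the windows. The HBEGF window holds neither run of letters and has 5 matches of GGGCGG, which 42.6% of windows hold. Of the 10 genes, 8 matched the promoter table with 14 windows, and TATAAA was found for 1 further gene, EGFR, at an alternative start.

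TGFA (ENSG00000163235, chromosome 2, 70447280 to 70554193, minus strand), transforming growth factor alpha, had 1.82 and 2.11 FPKM in the AGS NINJ1 libraries and 1.37 in the AGS control. HGC-27 held 8.31 and 7.65 FPKM in the NINJ1 libraries and 6.16 in the control. It was 4.55-fold lower in AGS (log2 -2.18, SE 0.24, edgeR adjusted p = 0.00862; -2.12 after GC correction), with no overlap between the lines. EREG (ENSG00000124882, chromosome 4, 74365143 to 74388751, plus strand), epiregulin, had 14 and 8 counts in the AGS NINJ1 libraries and 6 in the AGS control. In HGC-27 there were 174 and 177 counts in the NINJ1 libraries and 302 in the control. EREG was 20.3-fold lower in AGS (log2 -4.34, SE 0.50, edgeR adjusted p = 0.00999; -4.22 after GC correction), again without overlap, and the AGS side of that fold rests on few reads.

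AREG (ENSG00000109321, chromosome 4, 74445134 to 74455009, plus strand), amphiregulin, had 1.88 and 1.60 FPKM in the AGS NINJ1 libraries and 1.09 in the AGS control. Values in HGC-27 were 4.11 and 2.82 FPKM in the NINJ1 libraries and 1.84 in the control. AGS NINJ1 replicate 1 overlapped the HGC-27 control, and the log2 difference of -1.03 (SE 0.31, edgeR adjusted p = 0.118; -0.95 after GC correction, edgeR adjusted p = 0.0542) did not pass. HBEGF (ENSG00000113070, chromosome 5, 140332843 to 140346631, minus strand), heparin-binding EGF-like growth factor, had 122 and 128 counts in the AGS NINJ1 libraries and 91 in the AGS control. HGC-27 held 44 and 53 counts in the NINJ1 libraries and 11 in the control. HBEGF was 4.00-fold higher in AGS (log2 2.00, SE 0.40, edgeR adjusted p = 0.0448; 1.89 after GC correction), with no overlap.

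Which ligand dominated also differed between the lines. HBEGF made up 45.2% and 45.6% of the summed FPKM of the 4 ligands in the AGS NINJ1 libraries and 46.0% in the AGS control. Its share in HGC-27 was 6.49% and 8.52% in the NINJ1 libraries and 1.81% in the control. TGFA took 25.7% to 30.1% in AGS and 53.5% to 55.8% in HGC-27, and EREG 1.50% to 2.74% in AGS and 13.5% to 26.2% in HGC-27. The summed ligand level was 4.70 to 7.09 FPKM in AGS and 11.1 to 15.5 FPKM in HGC-27. Among EGFR, ERBB2 and ERBB3, EGFR gave 88.3% to 92.2% of the summed FPKM in AGS and 80.3% to 84.9% in HGC-27. The shares of HBEGF, TGFA, EREG and EGFR did not overlap between the lines, nor did that of ERBB3 (1.44% to 3.83% in AGS and 6.91% to 11.7% in HGC-27). The shares of AREG (22.8% to 26.4% in AGS and 16.5% to 26.5% in HGC-27) and ERBB2 (6.32% to 7.85% in AGS and 3.33% to 11.9% in HGC-27) overlapped.

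**Figure D2:**
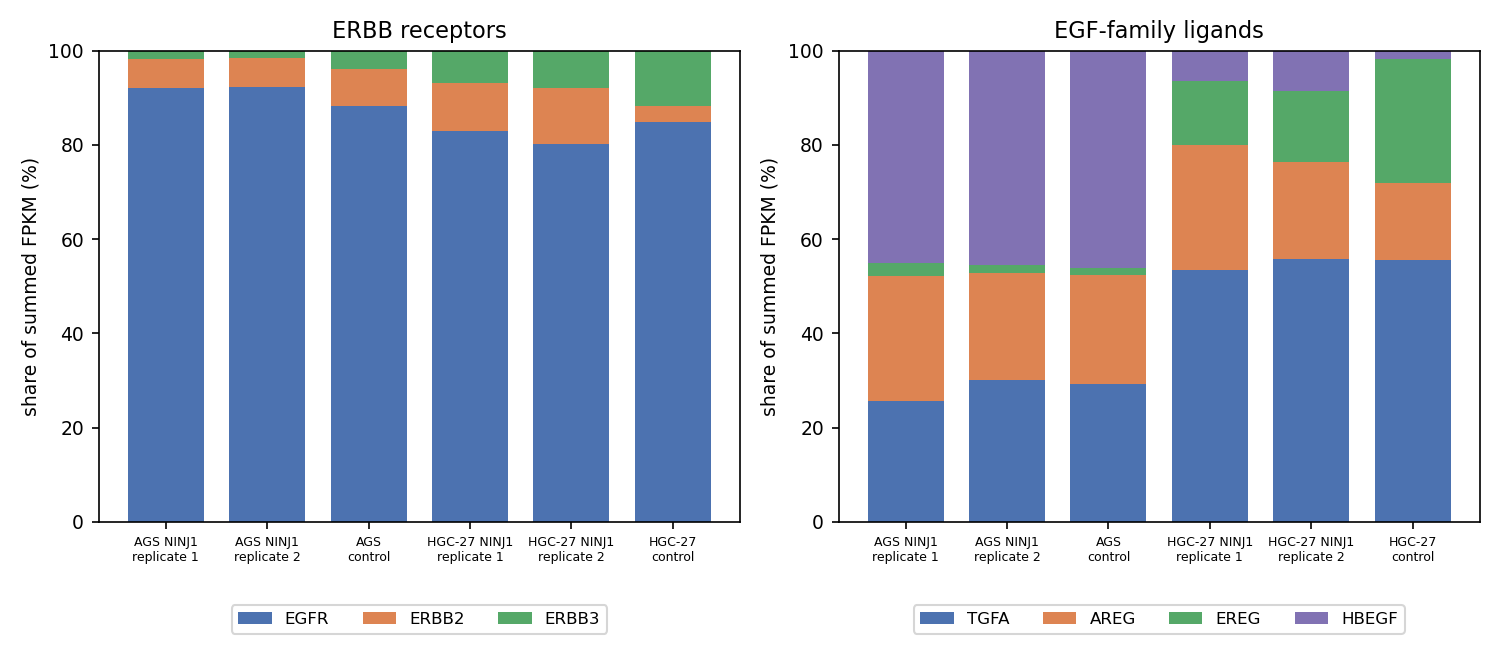
Share of each gene in the summed FPKM of EGFR, ERBB2 and ERBB3 (left) and of the 4 ligands (right), in percent, with 1 bar per library. HBEGF holds 45.2% to 46.0% of the ligand sum in AGS and 1.81% to 8.52% in HGC-27, where TGFA holds over 53%.

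Setting only the 4 NINJ1 libraries against each other, 2 AGS against 2 HGC-27, used neither control. Then 8 of 9 genes passed with edgeR, where 44.6% of all genes did (22.8% higher, 21.8% lower): EGFR (log2 1.05, SE 0.10), MET (0.82, SE 0.10), FGFR1 (1.30, SE 0.11) and HBEGF (1.56, SE 0.25) were higher in AGS. ERBB3 (-1.38, SE 0.16), AREG (-0.99, SE 0.30), EREG (-3.78, SE 0.31) and TGFA (-2.01, SE 0.16) were lower. The gene that did not pass was ERBB2, at 0.077 (SE 0.12, edgeR adjusted p = 0.651). After GC correction of all 6 libraries, 6 of 9 genes passed, EGFR joining the 5 above, where 22.1% of all genes passed (11.1% higher, 11.0% lower).

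The number of calls moved with each library left out. Leaving out 1 control lets the treatment term fit the other control by itself. The line difference then rests again on the 4 NINJ1 libraries, so these 2 fits repeat the comparison above. With the HGC-27 control left out 8 of 9 passed, where 41.4% of all genes did (21.0% higher, 20.4% lower), and with the AGS control left out also 8 of 9, where 41.1% did (20.5% higher, 20.7% lower). Leaving out any 1 NINJ1 library ended every call but that of EREG without AGS NINJ1 replicate 1 (edgeR adjusted p = 0.0412). The other left-out values were 0.115 to 0.151 for ERBB3, 0.115 to 0.181 for FGFR1, 0.135 to 0.202 for HBEGF, 0.0544 to 0.0656 for EREG and 0.0544 to 0.0792 for TGFA, with the direction of all 5 unchanged. Among the 4 undisputed libraries, EREG (log2 -4.46, edgeR adjusted p = 0.000173) and TGFA (-2.36, edgeR adjusted p = 0.0459) passed, 2 of 9, where 3.34% of all genes did (2.09% higher, 1.25% lower). With the lines as titled, 0 of 9 passed with edgeR (0.00% of all genes; 52 at an unadjusted p under 0.05), and the 5 genes kept their direction at log2 -0.34 for ERBB3, 0.84 for FGFR1, -1.33 for EREG, 0.94 for HBEGF and -0.88 for TGFA.

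**Figure D3:**
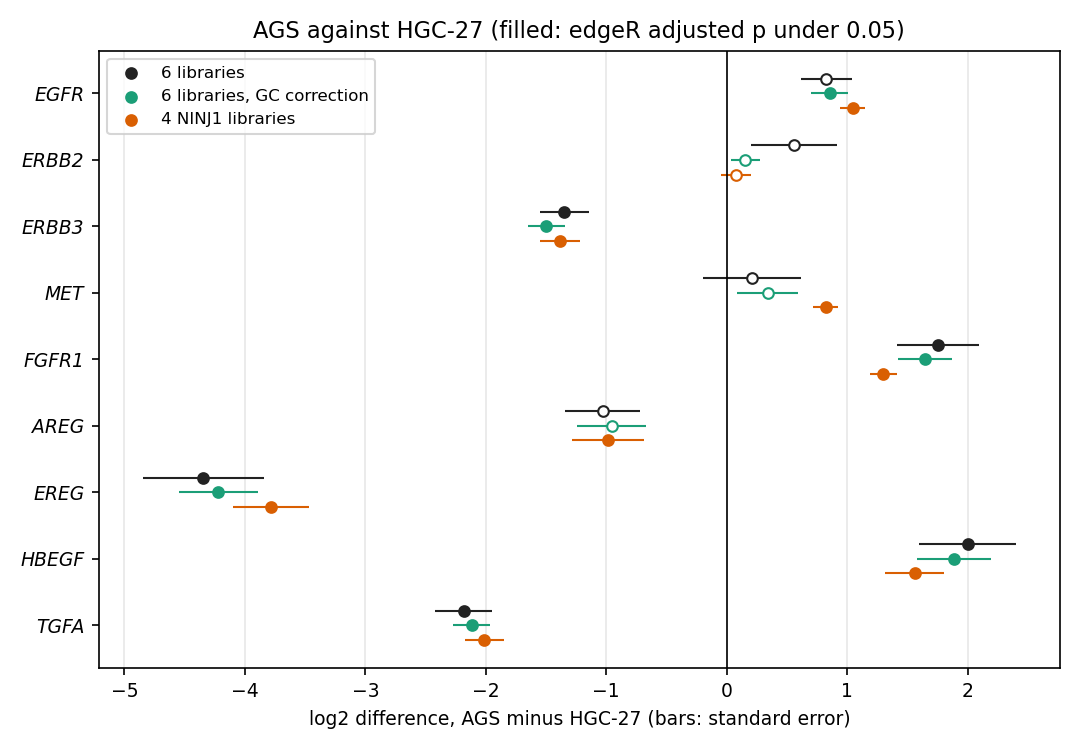
Log2 difference between AGS and HGC-27 with its standard error for the 9 tested genes, from all 6 libraries, from the same with a GC correction, and from the 4 NINJ1 libraries alone; filled points passed edgeR at adjusted p under 0.05. EREG (-4.34) and TGFA (-2.18) lie farthest to the left and HBEGF (2.00) and FGFR1 (1.76) farthest to the right, and MET passes only among the NINJ1 libraries.

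In AGS, NINJ1-labelled libraries against control showed a single call among the 9 tested genes, a lower ERBB3, where 15.0% of all genes were called (5.73% higher, 9.30% lower). ERBB3 had 139 and 138 counts in the NINJ1 libraries, against 329 in the control, or a scaled CPM of 10.4 and 9.93 in the NINJ1 libraries and 23.2 in the control. It fell 2.29-fold (log2 -1.19, SE 0.19, 2 libraries against 1, edgeR adjusted p = 2.03e-05), and -1.18 with the GC correction. Each library left out in turn kept the call, at an edgeR adjusted p of at most 0.000958, but the lines as titled ended it (log2 -0.28, edgeR adjusted p = 0.951). The other 8 genes had log2 differences from -0.19 (ERBB2) to 0.92 (EREG). All 4 ligands were at higher values in both NINJ1 libraries than in the control, with log2 0.62 (SE 0.42) for AREG, 0.92 (SE 0.63) for EREG, 0.51 (SE 0.29) for HBEGF and 0.47 (SE 0.23) for TGFA, none of which passed (edgeR adjusted p = 0.174 to 0.355). FGFR1 was at 0.33 (SE 0.14, edgeR adjusted p = 0.105), and passed with the GC correction (0.34, edgeR adjusted p = 0.0307, where 18.6% of all genes passed and 8.30% were higher), without HGC-27 NINJ1 replicate 1 (0.00722) and without HGC-27 NINJ1 replicate 2 (0.00714). With the lines as titled FGFR1 was at -0.18 (edgeR adjusted p = 0.967).

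In HGC-27 the NINJ1 libraries differed from the control in 7 of 9 genes, but 63.0% of all genes were called there (34.0% higher, 29.1% lower), with a median log2 of 0.12 over all genes tested. MET and ERBB3 fell and FGFR1 and HBEGF rose, with and without the GC correction. MET had 3183 and 2948 counts in the NINJ1 libraries, against 9836 in the control, a 3.43-fold fall (log2 -1.78, SE 0.12, edgeR adjusted p = 2.57e-14; -1.24 after GC correction, edgeR adjusted p = 5.27e-11). ERBB3 had 391 and 438 counts in the NINJ1 libraries, against 808 in the control (log2 -1.06, SE 0.17, edgeR adjusted p = 1.19e-06; -1.56 after GC correction). FGFR1 had 782 and 902 counts in the NINJ1 libraries, against 230 in the control (log2 1.77, SE 0.17, edgeR adjusted p = 3.79e-11; 1.38 with the correction). HBEGF rose 4.09-fold, on 44 and 53 counts in the NINJ1 libraries and 11 in the control (log2 2.03, SE 0.45, edgeR adjusted p = 0.000193; 1.70 with the correction).

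EGFR was called lower on the TMM scale (log2 -0.45, SE 0.12, edgeR adjusted p = 0.00222; -0.34 with the correction). Its FPKM, which is scaled by library total alone, overlapped, at 35.9 and 32.9 in the NINJ1 libraries and 35.6 in the control. TGFA was at -0.025 (SE 0.17, edgeR adjusted p = 0.916), and at 0.24 (edgeR adjusted p = 0.192) with the correction. ERBB2 and EREG depended on the correction. ERBB2 had 654 and 756 counts in the NINJ1 libraries, against 262 in the control (log2 1.33, SE 0.17, edgeR adjusted p = 4.78e-08), and its difference was -0.013 (SE 0.14, edgeR adjusted p = 0.954) with it. EREG, whose GC content of 36.1% was the lowest of the 10, was at -0.88 (SE 0.23, edgeR adjusted p = 0.00142, and 0.0585 with DESeq2), and at -0.16 (SE 0.22, edgeR adjusted p = 0.569) with it. AREG was at 0.52 (SE 0.35, edgeR adjusted p = 0.203) and passed with the correction (0.83, edgeR adjusted p = 0.0472). With the correction 6 of 9 genes passed, where 49.1% of all genes did (23.0% higher, 26.1% lower). Leaving out either HGC-27 NINJ1 library kept the 7 calls, but all of them rest on 1 control library. With the lines as titled, ERBB2 alone of the 9 passed (log2 1.36, edgeR adjusted p = 0.0463, where 12.2% of all genes passed, 9.17% higher and 3.03% lower), and EGFR turned to 0.22.

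**Figure D4:**
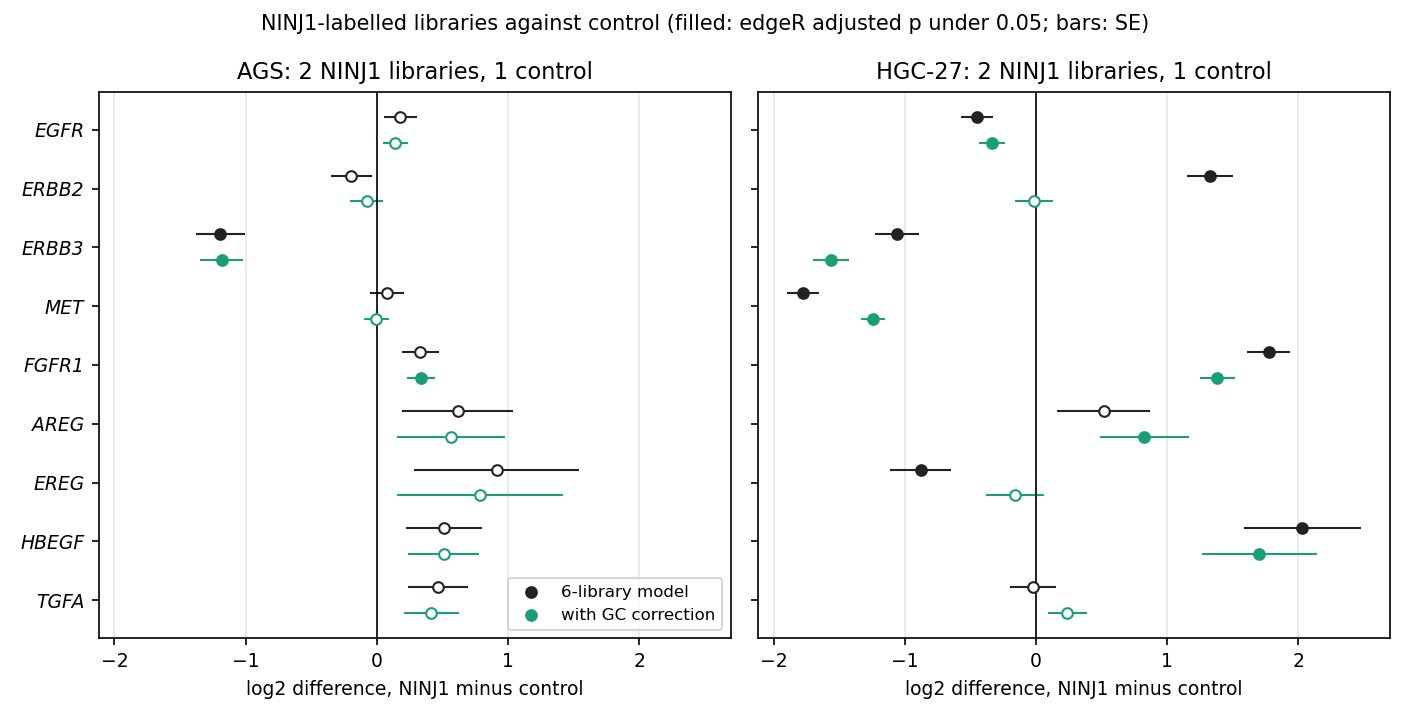
Log2 difference between NINJ1 libraries and the control in AGS (left) and HGC-27 (right), with its standard error, without (black) and with (green) the GC correction; filled points passed edgeR at adjusted p under 0.05. ERBB3 lies to the left of 0 in both lines, and ERBB2 in HGC-27 lies at 1.33 without the correction and at -0.013 with it.

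Whether the lines differed in these changes was tested as an interaction. MET (log2 1.85, SE 0.18, AGS minus HGC-27, edgeR adjusted p = 1.91e-10), FGFR1 (-1.44, SE 0.21, edgeR adjusted p = 7.11e-07) and EGFR (0.63, SE 0.18, edgeR adjusted p = 0.00341) passed with and without the GC correction, which gave 1.24, -1.05 and 0.48. EGFR did not pass without AGS NINJ1 replicate 2 (0.56, edgeR adjusted p = 0.0636). ERBB2 (-1.52), EREG (1.79) and HBEGF (-1.52) passed without the correction and not with it. The 6 calls among 9 genes stand beside 54.2% of all genes called (23.9% higher, 30.2% lower), and the 3 with the correction beside 35.2% (18.5% higher, 16.7% lower). For ERBB3 the difference was -0.13 (SE 0.25, edgeR adjusted p = 0.684), and 0.38 (edgeR adjusted p = 0.186) with the correction.

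Over both lines, 4 NINJ1 libraries against 2 controls with line as a term, 0 of 9 genes passed with edgeR, as did 0.00% of all genes (2257 of 17617 at an unadjusted p under 0.05; DESeq2 called 312). ERBB3 was at log2 -1.13 (SE 0.20, edgeR adjusted p = 0.303), and lower in 4 of 4 NINJ1 libraries than in its line's control. It passed with the GC correction (-1.38, SE 0.15, edgeR adjusted p = 0.0133, where 1.86% of all genes passed and 1.54% were lower) and with DESeq2 (-1.16, DESeq2 adjusted p = 0.00214). Leaving out 1 control leaves only the contrast of the line that keeps its control, so such fits are no separate evidence over both lines. ERBB3 was called at -1.19 without the HGC-27 control, a value that rests on the AGS control alone. It was called at -1.01 without the AGS control, on the HGC-27 control alone. Without the AGS control EGFR, ERBB2, MET, FGFR1, EREG and HBEGF passed too, at an edgeR adjusted p of at most 0.00675, 7 of 9 genes where 64.1% of all genes passed (35.8% higher, 28.3% lower), in a comparison that then rests on the HGC-27 control. Without the HGC-27 control EGFR (0.18), ERBB2 (-0.19), MET (0.084) and EREG (0.92) had the opposite sign and did not pass. The 4 undisputed libraries gave ERBB3 -1.14 (edgeR adjusted p = 1.00). With the lines as titled it was -1.02 (edgeR adjusted p = 0.701). Summed FPKM of the 6 epithelial markers, most of it from KRT8 and KRT18, was also lower: 124 and 123 in the AGS NINJ1 libraries, against 153 in the AGS control. The sum was 134 and 157 in the HGC-27 NINJ1 libraries, against 207 in the HGC-27 control. ELF3, on the same list, went the other way in HGC-27, at 11.9 and 11.7 FPKM in the NINJ1 libraries and 4.88 in the control, and turned its sign with the GC correction. The part of these markers in the ERBB3 result was not tested.

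Other genes of the pathway were counted from lists, of which up to 2 genes per direction and comparison are named. Among the remaining EGF and neuregulin family genes 6 of 8 were tested. NRG4, a ligand of ERBB4, was the 1 call between the lines, at a lower level in AGS (log2 -1.63, SE 0.32, edgeR adjusted p = 0.0432, and -1.47 after GC correction), where 2.87% of all genes were lower. With the correction 1 of 6 was higher and 2 lower, where 11.1% and 11.0% of all genes were. NRG1, a ligand of ERBB3, had 112 and 94 counts in the AGS NINJ1 libraries and 141 in the AGS control. HGC-27 held 15 and 20 counts in the NINJ1 libraries and 0 in the control, at least 5.45-fold higher against a floor of 3 counts. In HGC-27 1 of 6 rose and 2 fell, where 34.0% and 29.1% of all genes did. Those that fell were NRG4 (-1.28, SE 0.20, edgeR adjusted p = 1.30e-06, and -0.56 after GC correction) and ERBB4, the neuregulin receptor (-0.89, SE 0.31, edgeR adjusted p = 0.0121, and -0.22 with it). With the correction 1 of 6 rose and only 1 fell, where 23.0% and 26.1% did. In AGS 0 of 6 passed with edgeR, where 15.0% of all genes did, and 0 after GC correction, where 18.6% did. EGF itself had 0 to 11 counts and ERBB4 46 to 128 counts per library.

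Of the genes that ERK signalling is known to induce, 2 of 11 were higher and 0 lower in AGS against HGC-27, where 3.27% of all genes were higher, with a median of log2 0.80 against 0.077 for all genes. They were EGR1 (log2 3.26, SE 0.43, edgeR adjusted p = 0.0135, and 2.96 after GC correction), an immediate-early transcription factor, and ETV5 (1.13, SE 0.24, edgeR adjusted p = 0.0487, and 1.12 with it), an ETS-family factor. With the correction 4 of 11 were higher and 0 lower, where 11.1% and 11.0% of all genes were (median log2 0.48). In the NINJ1 libraries of HGC-27 10 of 11 of these genes rose and 0 fell, where 34.0% of all genes rose (median log2 1.83 against 0.12). With the GC correction 8 rose and 1 fell, where 23.0% rose and 26.1% fell, and the 1 that fell, PLAUR (singled out after its values were seen), had risen without it. IER3 (3.08, SE 0.17, edgeR adjusted p = 3.53e-16; 1.57 with the correction) and FOSL1, an AP-1 subunit (3.12, SE 0.23, edgeR adjusted p = 1.41e-13; 1.34 with it), had the smallest p. In AGS 4 of 11 rose and 2 fell, where 5.73% and 9.30% of all genes did. ETV5 (0.66, SE 0.14, edgeR adjusted p = 0.00144) and FOSL1 (0.88, SE 0.20, edgeR adjusted p = 0.00165) rose there, while F3 (tissue factor, -0.52, SE 0.15, edgeR adjusted p = 0.0158) and IER3 (-0.43, SE 0.14, edgeR adjusted p = 0.0295) fell. IER3 did not pass after GC correction (-0.29, edgeR adjusted p = 0.0501).

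Brakes on receptors and ERK had 2 of 15 genes higher and 0 lower in AGS, set against HGC-27, where 3.27% and 2.87% of all genes were. They were CBL, a ubiquitin ligase that marks EGFR and MET for degradation (log2 1.31, SE 0.17, edgeR adjusted p = 0.0119, and 1.38 after GC correction), and ERRFI1, an inhibitor of the EGFR kinase (1.74, SE 0.25, edgeR adjusted p = 0.0168, and 1.86 with it). With the correction 4 were higher and 2 lower, where 11.1% and 11.0% of all genes were. In the HGC-27 NINJ1 libraries 10 of 15 rose and 2 fell with the correction, where 23.0% and 26.1% of all genes did. Without it 10 rose and 3 fell, where 34.0% and 29.1% did. SOCS3, a suppressor of cytokine signalling (2.51, SE 0.19, edgeR adjusted p = 2.84e-13; 0.75 with the correction), and DUSP5, a nuclear ERK phosphatase (1.89, SE 0.14, edgeR adjusted p = 3.10e-13; 0.80 with it), had the smallest p among those that rose. NF1 (-1.24, SE 0.13, edgeR adjusted p = 2.13e-10; -0.66 with it) and RASA1 (-1.10, SE 0.15, edgeR adjusted p = 1.46e-07; -0.66 with it), which switch RAS off, had the smallest p among those that fell. In AGS CBL rose (0.41, SE 0.13, edgeR adjusted p = 0.0263) and SOCS3 (-0.70, SE 0.15, edgeR adjusted p = 0.00133) and LRIG1, which promotes loss of ERBB receptors (-0.71, SE 0.18, edgeR adjusted p = 0.00535), fell, 1 and 2 of 15, where 5.73% and 9.30% of all genes did. With the correction 4 rose and 2 fell in AGS, where 8.30% and 10.3% did.

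Ligand release genes had 0 of 5 past the threshold between the lines with edgeR, where 6.14% of all genes were. After GC correction 4 of 5 were higher in AGS, where 11.1% of all genes were: ADAM17 (log2 0.57), RHBDF1 (1.18), RHBDF2 (1.09) and FURIN (0.95), at an edgeR adjusted p from 0.00258 to 0.0215. Within AGS 0 of 5 rose and 1 fell, where 5.73% and 9.30% of all genes did. The 1 that fell was FURIN, a precursor-cleaving protease (log2 -0.73, SE 0.13, edgeR adjusted p = 8.89e-05). In HGC-27 3 rose and 2 fell, where 34.0% and 29.1% of all genes did, but FURIN (1.19) and ADAM10 turned their sign with the GC correction, FURIN to -0.85. The iRhoms RHBDF1 (3.41, SE 0.28, edgeR adjusted p = 1.47e-12; 1.15 after GC correction) and RHBDF2 (3.02, SE 0.26, edgeR adjusted p = 7.90e-12; 0.76 with it), which carry ADAM17 to the cell surface, rose. ADAM17 (-1.24, SE 0.14, edgeR adjusted p = 1.31e-09; -0.52 with it) and ADAM10 (-0.56, SE 0.13, edgeR adjusted p = 0.000258; 0.15 with it) fell.

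Adaptors and the RAS-MAPK and PI3K chains had 1 of 24 genes higher and 0 lower in AGS against HGC-27, where 3.27% and 2.87% of all genes were. It was PIK3R1, the regulatory PI3K subunit (log2 2.50, SE 0.34, edgeR adjusted p = 0.0142, and 2.66 after GC correction). With the correction 4 were higher and 1 lower, where 11.1% and 11.0% of all genes were. In AGS 3 of 24 rose and 1 fell, where 5.73% and 9.30% of all genes did. Among those that rose were the adaptor GAB2 (0.81, SE 0.17, edgeR adjusted p = 0.00128) and the phosphatase PTPN11 (0.53, SE 0.13, edgeR adjusted p = 0.00506). With the correction 5 rose and 1 fell in AGS, where 8.30% and 10.3% did. In HGC-27 9 of 24 rose and 11 fell, where 34.0% and 29.1% of all genes did. With the correction 5 rose and 11 fell, where 23.0% and 26.1% did, and 7 of the 20 called genes had the opposite sign. MAP2K2 (2.65, SE 0.18, edgeR adjusted p = 1.69e-14; 0.73 with it) and AKT2 (1.79, SE 0.15, edgeR adjusted p = 3.21e-12; 0.33 with it) rose, and PIK3CA (-1.48, SE 0.15, edgeR adjusted p = 1.67e-10; -0.77 with it) fell.

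Of the other growth factor receptors and ligands 9 of 20 were tested. PDGFRB, a platelet-derived growth factor receptor that is also a fibroblast marker, was higher in AGS (log2 5.27, SE 0.92, edgeR adjusted p = 0.0311, and 4.88 after GC correction) and fell in the AGS NINJ1 libraries (-2.45, SE 0.26, edgeR adjusted p = 1.64e-08). The 6 fibroblast markers summed to 3.80 and 3.40 FPKM in those libraries and 10.9 FPKM in the AGS control. Of the AGS control sum COL1A1 gave 6.91 FPKM and PDGFRB itself 3.90. The sum went the other way in HGC-27, at 5.40 and 5.82 FPKM in the NINJ1 libraries and 1.07 in the control. The part of these markers in any result was not tested. EPHA2, an ephrin receptor, rose in AGS (0.60, SE 0.13, edgeR adjusted p = 0.00106) and in HGC-27 (3.22, SE 0.15, edgeR adjusted p = 6.88e-18; 1.42 with the correction). FGF2, a ligand of FGFR1, fell in AGS (-0.67, SE 0.14, edgeR adjusted p = 0.00101) and in HGC-27 (-1.39, SE 0.14, edgeR adjusted p = 1.28e-10; -0.67 with it). FGFR4 rose (3.20, SE 0.21, edgeR adjusted p = 1.05e-14; 0.81 with it) and INSR, the insulin receptor, fell in HGC-27 (-1.01, SE 0.13, edgeR adjusted p = 5.29e-08; -1.08 with it). The line test called 1 of the 9 higher in AGS and 0 lower, where 3.27% and 2.87% of all genes were. After GC correction it called 3 higher and 0 lower, where 11.1% and 11.0% were. Within AGS 1 of the 9 rose and 3 fell, where 5.73% and 9.30% of all genes did. Within HGC-27 4 rose and 4 fell, where 34.0% and 29.1% did. With the correction 1 rose and 2 fell in AGS, where 8.30% and 10.3% did. The corrected counts in HGC-27 were 3 that rose and 4 that fell, where 23.0% and 26.1% did.

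**Figure D5:**
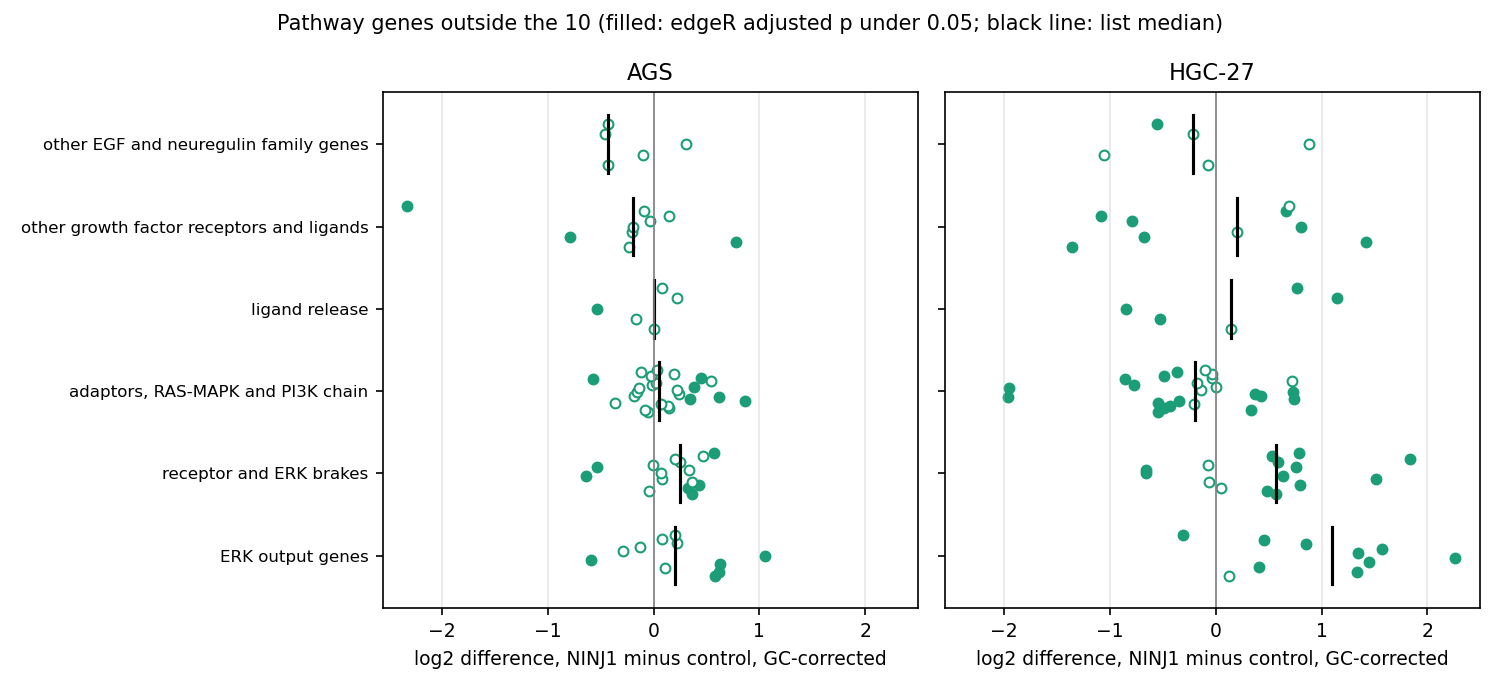
GC-corrected log2 difference between NINJ1 libraries and control for tested genes of 6 pathway lists in AGS (left) and HGC-27 (right), with 1 point per gene, filled where edgeR passed at adjusted p under 0.05, and a black line at the median of the genes drawn. Genes without a count in a whole group, 1 in AGS and 2 in HGC-27, are left out, and in HGC-27 8 of the 11 tested ERK output genes rose and 1 fell.

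Over the 6 libraries, the genes whose log2 CPM followed EGFR most closely among 9869 genes were CHURC1, GRPEL2 and NPAS2 (Pearson r = 0.998, 0.995 and 0.995), and 175 genes exceeded 0.95. Those closest to TGFA were PLK2, STOML2 and LCP1 (r = 1.00, 0.998 and 0.998), with 265 above 0.95. The 6 points share their 2 lines, and these values are a description.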

How the data were processed

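RNA-seq of polyadenylated RNA (NEBNext Ultra libraries, per the labels) gave 1 table for each of 6 libraries. HISAT2, HTSeq version 0.13.5 and the build GRCh38 are named in the submitters' processing notes; the strand setting and annotation release are not given in the sources used here. The deposited columns are raw counts and the authors' FPKM, which equalled count over gene length and library total within a relative 5.72e-09 (6974 genes). Positions and GC content of the longest transcript came from GENCODE release 29.

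Counts were tested with edgeR 4.0.16 in R 4.3.3 (filterByExpr, minimum count 10; TMM; two-sided quasi-likelihood F tests; Benjamini-Hochberg threshold 0.05) on 17617 genes. SE is the log2 change over the square root of F. Line differences had treatment as a term. Contrasts within a line used a mean for each combination of line and treatment, so a lone library is assumed to vary like the other groups. The GC correction used as offset each library's smoothed median deviation of log2 CPM by GC class. The test was checked on simulated data; DESeq2 1.42.0 and the alternatives of the closing section were run beside it.

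The 10 genes, lists, line reading and alternatives were chosen with earlier results of these data known. All 10 genes and NINJ1 are named, from each pathway list and comparison up to 2 genes per direction with the smallest p, and the 3 genes most like EGFR and TGFA. That rule also covers the interaction, whose list genes are left out of the text; some other results that it covers are not reported here. Reads where EGFR, ERBB2, ERBB3 and FGFR1 overlap neighbouring or antisense genes may be uncertain.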

Additional observations from a re-analysis of the deposited data

Results flagged for a closer look

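The NINJ1 contrast differed between the lines, by the interaction term of the edgeR model (AGS minus HGC-27), for 6 of the 9 tested genes and for NINJ1. The log2 differences were -2.57 for NINJ1, 0.63 for EGFR, -1.52 for ERBB2, 1.85 for MET, -1.44 for FGFR1, 1.79 for EREG and -1.52 for HBEGF. With the GC correction they were -1.18, 0.48, -0.064, 1.24, -1.05, 0.95 and -1.19, and ERBB2, EREG and HBEGF no longer passed (edgeR adjusted p = 0.831, 0.287 and 0.0815). Without AGS NINJ1 replicate 2 EGFR did not pass (0.56, edgeR adjusted p = 0.0636), nor did EREG without AGS NINJ1 replicate 1 (1.32, edgeR adjusted p = 0.183). With the lines as titled none of the 7 passed with edgeR (adjusted p from 0.0837 to 0.718). In all of these the HGC-27 side rests on 1 control, whose genes above 60% GC had a median log2 deviation of -1.86 against all 6 libraries.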

How the results depend on the processing

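Counts of calls over all genes, and of the 9 tested genes among them, depended on the setting. For AGS against HGC-27 (1082 genes, 5 of 9) they were 3888 genes with the GC correction, 2459 with DESeq2, 6940 and 8 on the 4 NINJ1 libraries, 575 and 2 on the 4 undisputed libraries, 0 and 0 with the lines as titled, and 114 to 7117 and 0 to 8 with a library left out. For NINJ1 in AGS (2648 and 1) they were 2 of 9 with the GC correction, 1308 genes with DESeq2, 0 and 0 as titled, and 935 to 4712 and 1 to 2 with a library left out. For NINJ1 in HGC-27 (11103 and 7) they were 2149 and 1 as titled. For the difference between the lines (9547 and 6) they were 6196 and 3 with the GC correction and 0 and 0 as titled. Over both lines (0 and 0) they were 328 and 1 with the GC correction, 312 and 1 with DESeq2, 1 gene on the 4 undisputed libraries, and 0 to 11043 and 0 to 7 with a library left out. The causes were not tested.

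Over NINJ1 and the 9 genes, 32 of 570 values under an alternative had the other sign, 28 of them where neither value passed. In the other 4, ERBB2 in HGC-27 was at -0.013 with the GC correction, EGFR in HGC-27 at 0.22 and its difference between the lines at -0.54 with the lines as titled, and NINJ1 over both lines (main value 0.39) at -0.68 with no HGC-27 control. With no AGS control NINJ1 over both lines was at 1.95, the same sign as its main value. DESeq2 ended the calls of NINJ1 in AGS (DESeq2 adjusted p = 0.136), EREG in HGC-27 (0.0585) and the interactions of EREG (0.0790) and HBEGF (0.137), and called EGFR between the lines (0.0260). Other scalings and no filter changed no call of the 9 genes. Seen from 3 counts on, 1 of the 15 HGC-27 genes was found in AGS NINJ1 replicate 2. The replicate block, with the number as a term and controls as their own level, left 117 genes and 0 of 9 for AGS against HGC-27; the deviations of the replicate 1 libraries correlated at r = 0.0084 across 17617 genes (-0.81 with lines as titled), and no label says that a number marks a shared batch. No paired analysis was possible for NINJ1 against control because the controls carry no number. Depth limits EREG in AGS, FGFR2 and HBEGF in the HGC-27 control, which rest on at most 14 counts per library.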
